A study of Mus musculus with 6 samples.

Results

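Transgelins, calponins, caldesmon and tropomyosins are the proteins that bind along the side of actin filaments, and 10 genes encode the forms examined here: Tagln, Tagln2, Cnn1, Cnn2, Cnn3, Cald1, Tpm1, Tpm2, Tpm3 and Tpm4. They were taken by symbol, and all 10 were found among the 22482 genes of the deposited mRNA table. RNA was sequenced from cultured aortic vascular smooth muscle cells of C57BL/6 mice, the contractile cells of the vessel wall, in 3 libraries labelled Myocd knockdown and 3 labelled control. Per the labels, cells grew with 10% fetal bovine serum, the first group received an adenovirus against Myocd and the second a negative control virus, both for 48 h. The series' design text instead calls the second group wildtype cells, so a response to the virus and a response to Myocd cannot be told apart with certainty. The labels do not give the promoter or insert of the virus, nor whether a group's libraries are separate cultures or mice. The p-values thus reflect only how far these libraries spread, and that spread may be technical.

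In a contractile smooth muscle cell, tropomyosin lies as a coiled coil along the thin filament, while caldesmon and calponin hold back the actin-activated ATPase of myosin until calcium and kinases release them. Transgelin, also called SM22 alpha, is a small calponin-related protein that crosslinks actin. Tagln, Cnn1, the long splice form of caldesmon and the muscle forms of Tpm1 and Tpm2 are classic markers of the contractile state, and Tagln and Cnn1 are textbook targets of serum response factor (SRF) with its coactivator myocardin, the product of Myocd. Tagln2, Cnn2, Cnn3, Tpm3 and Tpm4 are the relatives found widely in cells without a contractile apparatus, where they act on stress fibres and the cell cortex.

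Myocd itself ran against the labels. It was measured at 131.7, 130.1 and 145.5 FPKM (fragments per transcript length and sequencing depth, as normalized by the authors) in knockdown-labelled libraries, and at 0.0355, 0 and 0.125 FPKM in those labelled control. Groups are therefore called by their labels throughout, and higher or lower refers to the knockdown-labelled libraries, where Myocd was high, relative to the control-labelled ones. Depth, as fragments recovered from the count columns of the mRNA table, ran from 7528152 to 9793782 per library. The smooth muscle label was met in part. Of 14 smooth muscle identity genes 4 stayed below 0.5 FPKM in every library, among them the myosin heavy chain Myh11 (means of 0.0604 and 0.0132 FPKM) and Cnn1, whereas Acta2, the smooth muscle actin, averaged 340.2 and 67.2 FPKM. The smooth muscle list, which includes Tagln and Cnn1 themselves, summed to 603.8 to 627.8 against 289.6 to 303.7 FPKM. Limma called 6 of its 10 tested genes higher (Acta2, Lmod1, Myl9, Des, Actg2 and Synpo2), against 1.83% of all tested genes. Of these 6, Lmod1 and Actg2 passed the filter on low values (0.5 FPKM in 3 libraries) only through the group where they were high. So did Tagln, which was tested and not called. Of the markers of other cells, 9 of 10 endothelial genes (Emcn at 0) and 8 of 11 macrophage genes (Tyrobp at 0) stayed below 0.5 FPKM in every library. Endothelial markers summed to 1.30 to 2.53 against 0.468 to 1.07 FPKM, and macrophage markers, mostly Cd14, to 20.7 to 24.8 against 22.5 to 26.8 FPKM. Fibroblast markers summed to 1293 to 1523 FPKM in knockdown-labelled libraries and 1236 to 1402 FPKM in those labelled control, most of it Ly6a. Mesothelial markers summed to 302.4 to 326.3 against 320.0 to 353.5 FPKM, most of it Krt19 and with Muc16 at 0. Msln, a mesothelial marker named here after its values were seen, averaged 80.0 against 75.9 FPKM. Striated muscle markers summed to 10.8 to 15.7 against 12.0 to 16.4 FPKM, with Tnnt2 the highest and Ckm and Myog at 0. Of these marker lists the endothelial one held 1 called gene, Vwf (1.24 ± 0.330 against 0.185 ± 0.107 FPKM, SD, n = 3 each, limma adjusted p = 0.0346), which passed the filter on low values (0.5 FPKM in 3 libraries) only through the group where it was high, and the fibroblast, macrophage, mesothelial and striated muscle lists 0, with 3, 1, 1 and 2 genes at an unadjusted limma p under 0.05. EdgeR called 1 fibroblast gene lower and 0 genes of the other 4 lists. The part of other cells in the values below was not tested.

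The promoters are shown first because SRF binds the CArG box, which is CC, then 6 bases that are each A or T, then GG, and reads alike on both strands. RefSeq windows of the 250 bases before an annotated transcript start (GRCm38.p6) were at hand for 9 of the 10 genes, 11 windows in all. That start need not be the outermost start of the gene: the Tpm1 window and the second windows of Cald1 and Tpm3 lie inside the RefSeq gene, and some others overlap its first bases. Tagln had no entry. An exact CArG box stood in 1 of the 11 windows, that of Cnn2, against 1.47% of all 32851 windows of that length. With 1 letter allowed to differ, 5 of the 11 windows held a match, in Cnn2, Cald1, Tpm1 and Tpm3 (both windows), against 18.6% of all windows. No match stood in the windows of Tagln2, Cnn1, Cnn3, Tpm2 and Tpm4, or in the second of Cald1. The second Tpm3 window held a pair of near matches. Whether matches go with the differences in level given below was not tested. The 3 windows below are those of Cnn2 with its exact box, of Tpm1 with a pair of near matches, and of Tagln2 with none. Capitals mark exact or near CArG boxes, and each sequence is written from 5′ to 3′ on the gene's own strand. A match is a description of the letters and no measure of binding.
Cnn2 (chr10:79988350-79988599, plus strand): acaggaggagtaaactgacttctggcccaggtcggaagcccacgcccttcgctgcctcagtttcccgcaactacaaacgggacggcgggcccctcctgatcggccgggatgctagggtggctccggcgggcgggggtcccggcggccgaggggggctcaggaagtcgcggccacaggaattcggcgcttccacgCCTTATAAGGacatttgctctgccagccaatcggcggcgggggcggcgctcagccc
Tpm1 (chr9:67049214-67049463, minus strand): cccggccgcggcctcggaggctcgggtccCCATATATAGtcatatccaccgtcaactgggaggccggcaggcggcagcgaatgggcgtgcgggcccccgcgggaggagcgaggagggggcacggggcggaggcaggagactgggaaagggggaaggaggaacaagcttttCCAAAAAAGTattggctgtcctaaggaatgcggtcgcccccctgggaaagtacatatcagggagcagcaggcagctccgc
Tagln2 (chr1:172499996-172500245, plus strand): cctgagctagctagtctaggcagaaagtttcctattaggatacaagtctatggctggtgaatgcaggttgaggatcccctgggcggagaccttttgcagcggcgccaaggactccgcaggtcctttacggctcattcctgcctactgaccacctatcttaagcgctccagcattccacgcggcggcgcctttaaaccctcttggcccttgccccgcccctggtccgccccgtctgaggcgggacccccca
The CCTTATAAGG of Cnn2 begins 56 bases before the start of the gene. The near matches of Tpm1, CCATATATAG and CCAAAAAAGT, begin 221 and 80 bases before the internal transcript start that its window precedes.

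No member passed the main test, although 6 came close to its threshold. Of the 9 genes that could be tested, 6 were higher in each library labelled knockdown than in any labelled control. These were Tagln, Cnn2, Cnn3, Cald1, Tpm1 and Tpm4. Over all tested genes, groups were apart in that direction for 13.3% and in the lower direction for 15.6%. The adjusted p-values of the 6 genes lay between 0.0511 and 0.0634 (limma on log2(FPKM + 0.1), Benjamini-Hochberg over 11612 genes, threshold 0.05), so limma called 0 of 9 members. Called genes made up 3.44% of all tested genes (1.83% higher, 1.61% lower). Calls were commoner among abundant genes, where 8 of the members lie. Of the 1584 that averaged 50 FPKM or more, limma called 9.22% (86 higher, 60 lower), and their median log2 fold change was 0.007. The shares of all tested genes given here are thus a low background for limma calls among abundant members. For edgeR and DESeq2 the share among abundant genes is not given here. At an unadjusted p under 0.05 stood 7 of the 9 members, 6 of them higher, beside 22.4% of all tested genes (10.2% higher). EdgeR on the recovered fragments called the 6 genes higher and 0 lower (5.45% of its tested genes were called higher, 9.95% in either direction), and DESeq2 called 5 of them, all but Tagln, against 3.78% of genes. With each library centred on its median, limma called 5 members higher, against 2.29% of genes. The median log2 fold change of the 9 tested members was 0.23, beside -0.01 over all tested genes. Cnn1 did not reach 0.5 FPKM in any library and was not tested.

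**Figure D1:**
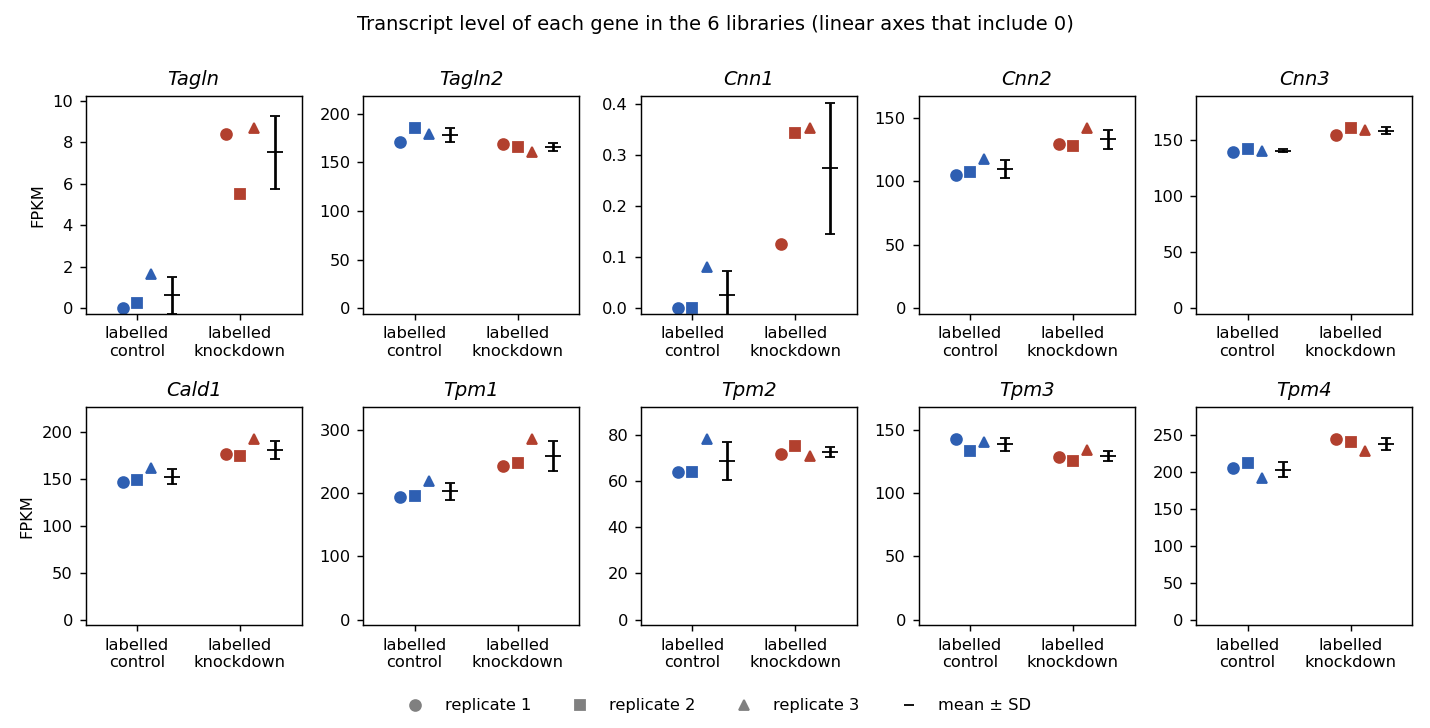
FPKM of the 10 genes (vertical axes, linear, each with its own range that includes 0) in the 3 libraries labelled control (blue) and the 3 labelled knockdown (red). Symbols are replicates and the bar is the mean ± SD. Tagln and Cnn1 are low in every library and lie apart between groups, while the other 8 genes exceed 60 FPKM in every library and differ by small steps.

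By level, Tagln and Cnn1 stood apart from the other 8 genes. Per transcript length, 8 of the 10 genes exceeded 60 FPKM in every library, and they ranked high in the libraries labelled control, with 90.8% of tested genes lying below Tpm2 and 97.5% below Tpm1. In the libraries labelled control the order of mean level was Tpm1 (203.0 FPKM), Tpm4 (202.8), Tagln2 (178.4), Cald1 (152.2), Cnn3 (140.6), Tpm3 (138.4), Cnn2 (109.7), Tpm2 (68.7), Tagln (0.637) and Cnn1 (0.0270). Neighbours whose ranges over libraries overlapped were Tpm1 with Tpm4, Cnn3 with Tpm3, and Tagln with Cnn1. In the libraries labelled knockdown Cald1 (180.8 FPKM) stood above Tagln2 (165.6) and Cnn2 (132.9) beside Tpm3 (129.1), with ranges that overlapped for Tpm1 and Tpm4 and for Cnn2 and Tpm3. Together the 10 genes held 0.308%, 0.307% and 0.323% of recovered fragments in the libraries labelled knockdown and 0.267%, 0.271% and 0.282% in those labelled control. The groups did not overlap (exact two-sided permutation p = 0.1, the smallest that 3 against 3 libraries allow).

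Tagln, the transgelin of smooth muscle, made the largest step of the tested members. It was measured at 8.39, 5.49 and 8.69 FPKM in knockdown-labelled libraries and at 0, 0.260 and 1.65 FPKM in those labelled control. The lowest value labelled knockdown was above the highest labelled control, and the control libraries spread widely. Tagln averaged 7.52 ± 1.77 against 0.637 ± 0.887 FPKM (SD, n = 3 each), and limma put the log2 fold change at 4.23 (SE 0.91, adjusted p = 0.0555). Behind these lie 126, 81 and 110 recovered fragments against 0, 4 and 26. The library with 0 could still hold a level of up to 3 fragments. EdgeR gave a log2 fold change of 3.56 and called it (adjusted p = 0.00255), and DESeq2 gave 3.56 without a call (adjusted p = 0.113). Over all alternatives the adjusted p ran from 0.00251 to 0.146. Without control replicate 3, the control library with the most Tagln, limma called the gene (log2 fold change 5.30, adjusted p = 0.0206). Without control replicate 1, the library at 0, the log2 fold change was 3.23 (adjusted p = 0.0966). With a pseudocount of 1 in place of 0.1 it was 2.49 and called (adjusted p = 0.0181), and with 0.01 it was 5.48 and not called (adjusted p = 0.113). Since only 1 control library reached 0.5 FPKM, Tagln passed the filter on low values through the group in which it was high.

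Tagln2, the transgelin of many cell types, was the abundant form and ran level or slightly lower. It was measured at 169.3, 166.3 and 161.1 FPKM in knockdown-labelled libraries and at 170.5, 185.3 and 179.2 FPKM in those labelled control. The groups did not overlap, by a margin of about 1 FPKM, and limma put the log2 fold change at -0.11 (SE 0.04, 95% interval -0.21 to -0.003, adjusted p = 0.213). EdgeR put the difference at -0.004 (adjusted p = 0.96). The share of Tagln in the summed transgelin FPKM went from 0%, 0.140% and 0.912% in the libraries labelled control to 4.72%, 3.19% and 5.12% in those labelled knockdown. Tagln2 thus held at least 94.9% of the transgelin transcripts in every library. The log2 ratio of Tagln over Tagln2 (with 0.1 FPKM added to each) was 4.34 higher in the libraries labelled knockdown and its groups did not overlap (exact two-sided permutation p = 0.1, 0.15 adjusted over 3 ratios). With 0.01 or 1 FPKM added that difference was 5.59 or 2.60.

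In the tables, whose coordinates are mm10 and are given here with 1 added to the start, the locus of Tagln2 (ENSMUSG00000026547) spans 172500047 to 172507380 on the plus strand of chromosome 1. That of Tagln (ENSMUSG00000032085) spans 45838580 to 45936058 on chromosome 9, a longer stretch than the gene. The RefSeq gene Tagln itself lies from 45929628 to 45936058 on the minus strand. Likewise Cnn2 (ENSMUSG00000004665), from 79988600 to 79995400 on chromosome 10 in RefSeq, sits in a table locus 98.9 times as long. Tpm1 (ENSMUSG00000032366) spans 67022590 to 67049406 on the minus strand of chromosome 9.

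Among the calponins, Cnn1 was barely detected and the relatives Cnn2 and Cnn3 carried nearly all of the transcript pool. Cnn1, the calponin of differentiated smooth muscle, was measured at 0.127, 0.344 and 0.353 FPKM in knockdown-labelled libraries and at 0, 0 and 0.0810 FPKM in those labelled control. These rest on 3, 8 and 7 fragments against 0, 0 and 2. Summed over libraries the counts were 18 and 2, a depth-scaled ratio of 9.99 with an exact 95% interval of 2.39 to 88.8 that covers counting error only. Fitted with no filter on low values, Cnn1 did not pass (log2 fold change 1.55, limma adjusted p = 0.104). Cnn1 made up no more than 0.119% of calponin FPKM in any library, and its log2 ratio to Cnn2 and Cnn3 together (with 0.1 FPKM added) was 1.33 higher in the libraries labelled knockdown (exact permutation p = 0.1, 0.15 adjusted over 3 ratios). That value rests on the pseudocount: it was 3.42 with 0.01 FPKM added and 0.09 with 1 FPKM added, where the groups no longer gave the smallest p (exact permutation p = 0.4).

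Cnn2 and Cnn3, which serve actin networks outside muscle, were both higher by a modest step. Cnn2 was measured at 128.9, 127.8 and 141.8 FPKM in knockdown-labelled libraries and at 104.6, 106.9 and 117.7 FPKM in those labelled control. Replicate 3 was the highest of each group, and the groups did not overlap. Limma put the log2 fold change of Cnn2 at 0.28 (SE 0.06, adjusted p = 0.062), whereas edgeR called it at 0.29 (adjusted p = 0.00809). Cnn3 was measured at 154.6, 160.8 and 159.4 against 139.5, 141.7 and 140.5 FPKM. Its libraries lay close together in each group, so that the smallest fold change of the 6 genes had the smallest adjusted p (log2 fold change 0.17, SE 0.04, limma adjusted p = 0.0511), and edgeR called it at 0.18 (adjusted p = 0.0069). Summed over the 3 genes, calponin FPKM was 291.4 ± 9.21 against 250.3 ± 7.27 (SD, n = 3 each), with no overlap between groups (exact permutation p = 0.1).

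Caldesmon, the product of Cald1, exists as a long smooth muscle form and a short form of other cells, which the gene-level table does not separate. Cald1 was measured at 176.3, 174.1 and 191.8 FPKM in knockdown-labelled libraries and at 146.0, 148.8 and 161.8 FPKM in those labelled control. As for Cnn2, replicate 3 was the highest in each group and the groups did not overlap. Limma put the log2 fold change at 0.25 (SE 0.06, adjusted p = 0.0634). EdgeR put it at 0.28 and called it (adjusted p = 0.000358), on 5641 to 6603 fragments per library labelled knockdown and 5619 to 5842 per library labelled control. In bulk RNA of this kind, fewer cells that express a gene and less RNA per cell cannot be told apart.

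Tropomyosins had the largest summed level of the 3 families with several members. EdgeR called 2 of the 4 tropomyosin genes higher, beside 5.45% of all genes it tested. Tpm1, which encodes alpha-tropomyosin with muscle and non-muscle splice forms, was measured at 242.6, 247.6 and 285.4 FPKM in knockdown-labelled libraries and at 193.9, 196.2 and 219.0 FPKM in those labelled control. Replicate 3 was again the highest of each group, and the groups did not overlap. Limma put the log2 fold change at 0.35 (SE 0.08, adjusted p = 0.0555), whereas edgeR called it at 0.38 (adjusted p = 0.00718). Tpm4, a tropomyosin of non-muscle cells, was measured at 243.9, 240.7 and 227.8 against 204.7, 211.7 and 192.1 FPKM. In Tpm4 replicate 3 was the lowest of each group, and the groups did not overlap. Limma put it at 0.23 (SE 0.05, adjusted p = 0.0555), whereas edgeR called it at 0.24 (adjusted p = 0.00271).

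Tpm2 and Tpm3 were called by neither tool. Tpm2, which encodes the beta-tropomyosin of smooth and skeletal muscle, was measured at 71.8, 75.1 and 71.0 FPKM in knockdown-labelled libraries and at 63.9, 64.1 and 78.2 FPKM in those labelled control. Control replicate 3 was the highest of the 6 libraries, so the groups overlapped. Limma put the log2 fold change at 0.09 (SE 0.08, 95% interval -0.11 to 0.28, adjusted p = 0.578), and without control replicate 3 it was 0.18 (adjusted p = 0.123). Tpm3 is a source of short non-muscle forms and of a slow skeletal form. It was measured at 128.6, 125.3 and 133.6 against 142.4, 132.9 and 140.0 FPKM. The groups overlapped, with a log2 fold change of -0.10 (SE 0.04, 95% interval -0.21 to 0.01, limma adjusted p = 0.241). EdgeR gave an adjusted p of 0.423 for Tpm2 and 0.186 for Tpm3. Neither interval of the limma fit reached the 0.35 of Tpm1, but the difference between members was not tested.

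**Figure D2:**
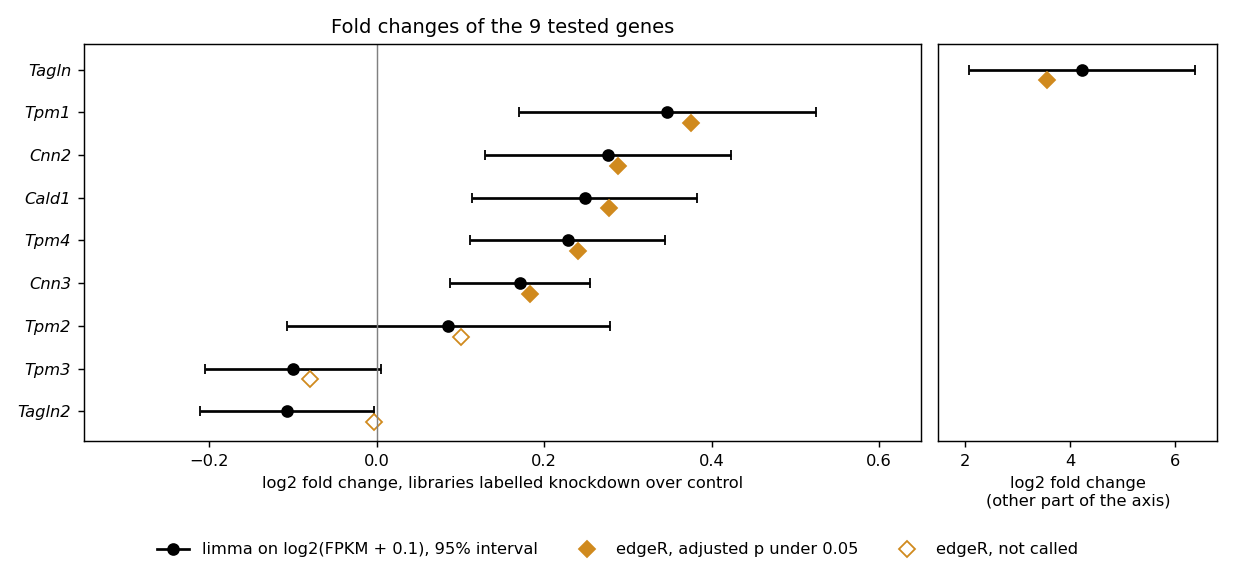
Log2 fold change (horizontal axis) of the 9 tested genes in the libraries labelled knockdown over those labelled control. Black points are limma estimates with unadjusted 95% intervals, and diamonds are edgeR estimates, filled where edgeR called the gene. The 6 genes called by edgeR lie above 0 with both tools, Tagln on its own part of the axis, and the intervals of Tpm2 and Tpm3 include 0.

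The makeup of the tropomyosin pool moved by a few percent. Summed tropomyosin FPKM was 697.8 ± 17.3 in the libraries labelled knockdown and 613.0 ± 14.1 in those labelled control (SD, n = 3 each), with no overlap. Tpm3 held 18.7%, 18.2% and 18.6% of that sum in the libraries labelled knockdown and 23.5%, 22.0% and 22.3% in those labelled control. The share of Tpm3 was thus lower in each knockdown-labelled library than in any labelled control. Tpm1 held 35.3%, 36.0% and 39.8% against 32.1%, 32.4% and 34.8%, also without overlap. The shares of Tpm2 (10.4% ± 0.508 against 11.2% ± 1.06) and Tpm4 (34.1% ± 2.04 against 33.1% ± 2.32) overlapped. Each of the shares of Tpm1 and Tpm3 gave an exact permutation p of 0.1, or 0.18 adjusted over the 9 shares compared in the 3 families. The log2 ratio of Tpm1 and Tpm2 over Tpm3 and Tpm4 set the genes classed as muscle over those classed as non-muscle, with splice forms not separated. It was -0.24, -0.18 and -0.02 in the libraries labelled knockdown and -0.43, -0.40 and -0.16 in those labelled control. Those groups overlapped (difference 0.18, exact permutation p = 0.3, also 0.3 adjusted over 3 ratios).

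**Figure D3:**
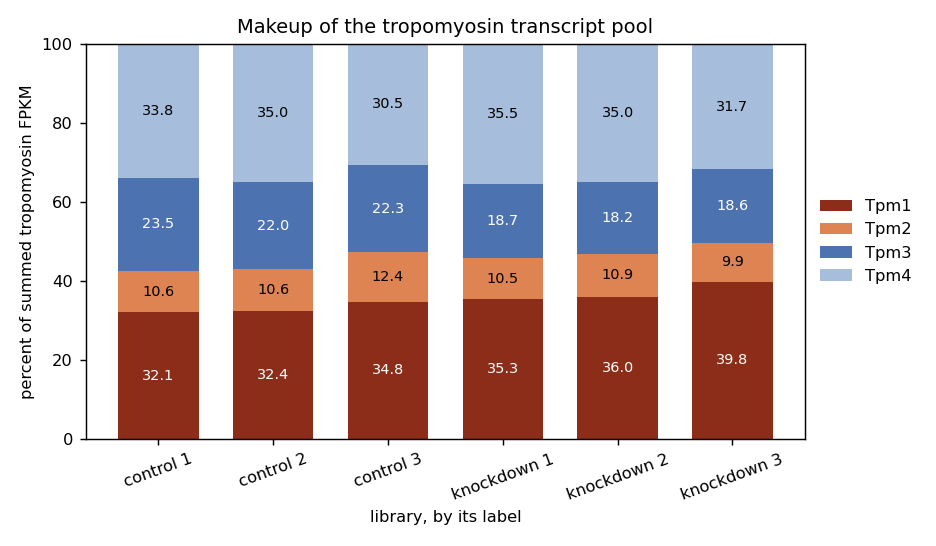
Share of each tropomyosin gene in the summed tropomyosin FPKM (vertical axis, percent) in each of the 6 libraries, with the values written in the bars. Tpm3 takes 18.2% to 18.7% in the libraries labelled knockdown and 22.0% to 23.5% in those labelled control, and Tpm1 is the larger by a few percent in the former.

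Counted over all 10 genes, 7 were higher in every library labelled knockdown than in any labelled control, 1 was lower (Tagln2) and 2 overlapped. Cnn1 was among the 7 without being tested, and Tagln passed the filter through 1 group. Of all tested genes, 13.3% were apart in the higher and 15.6% in the lower direction. The gene-level values do not separate splice forms, so the classes below are of genes and not of muscle or non-muscle forms. The tested genes classed as muscle, Tagln, Cald1, Tpm1 and Tpm2, had a median log2 fold change of 0.30. The 5 genes classed as non-muscle had one of 0.17. EdgeR called 3 of the 4 and 3 of the 5 genes higher, beside 5.45% of all genes it tested. Both classes held called and uncalled genes.

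The lncRNA table holds 14 noncoding transcripts that its authors paired with 7 of the 10 genes. Of these, 7 were at 0 in all libraries and 6 could be tested. Limma called 0 of the 6 at an adjusted p under 0.05, beside 4.26% of the 4955 lncRNA transcripts tested. At an unadjusted p under 0.05 stood 1 of the 6, and the share of all lncRNA transcripts at that unadjusted level is not given here. A transcript of 1053 bases, uc009qfo.1, shares exons with Tpm1 on the same strand. It was measured at 73.7, 78.1 and 24.6 FPKM in knockdown-labelled libraries and at 76.1, 74.7 and 53.5 FPKM in those labelled control. In both groups it was lowest in replicate 3, the library of each group in which the Tpm1 mRNA value was highest. Whether the gene value already holds fragments of this transcript is not given in the sources used here. When the FPKM of both was added, an alternative chosen after seeing the data, the sum was 316.4, 325.7 and 310.0 against 270.05, 270.9 and 272.5 FPKM. The SD over the control libraries went from 13.9 to 1.23 FPKM, and limma then called Tpm1 higher (log2 fold change 0.23, SE 0.03, adjusted p = 0.0224), as did edgeR (log2 fold change 0.30, adjusted p = 0.00101).

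For Tagln2 the same addition turned the sign of the log2 fold change, which was called neither before nor after. The noncoding transcript uc029qur.1 of 470 bases, which shares its exons, was measured at 179.9, 170.0 and 196.8 FPKM in knockdown-labelled libraries and at 147.5, 152.9 and 165.7 FPKM in those labelled control. It was thus higher where the Tagln2 mRNA value was lower, and its groups did not overlap (log2 fold change 0.23, limma adjusted p = 0.286). The sums of both were 349.2, 336.2 and 357.9 against 318.0, 338.2 and 344.9 FPKM and overlapped (log2 fold change 0.06, limma adjusted p = 0.468). Of the summed counts, the short noncoding transcript held only 13.8% to 19.2% per library. On fragments the edgeR estimate went from -0.004 (adjusted p = 0.96) to 0.036 (adjusted p = 0.548). The deposited counts per unit of FPKM, which follow the transcript length assumed by the authors' software, were 14.8, 14.8 and 15.1 for Tagln2 in the libraries labelled knockdown and 14.26, 13.65 and 13.99 in those labelled control. For the other 7 abundant members that quotient overlapped between groups, and its lowest library was 93.3% (Cald1) to 98.6% (Cnn2) of its highest, against 90.7% for Tagln2. Of 8665 genes, 80.1% shifted less between groups in this quotient than Tagln2. The groups of Tagln2 were thus apart in this quotient as well, in the direction opposite to its FPKM.

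**Figure D4:**
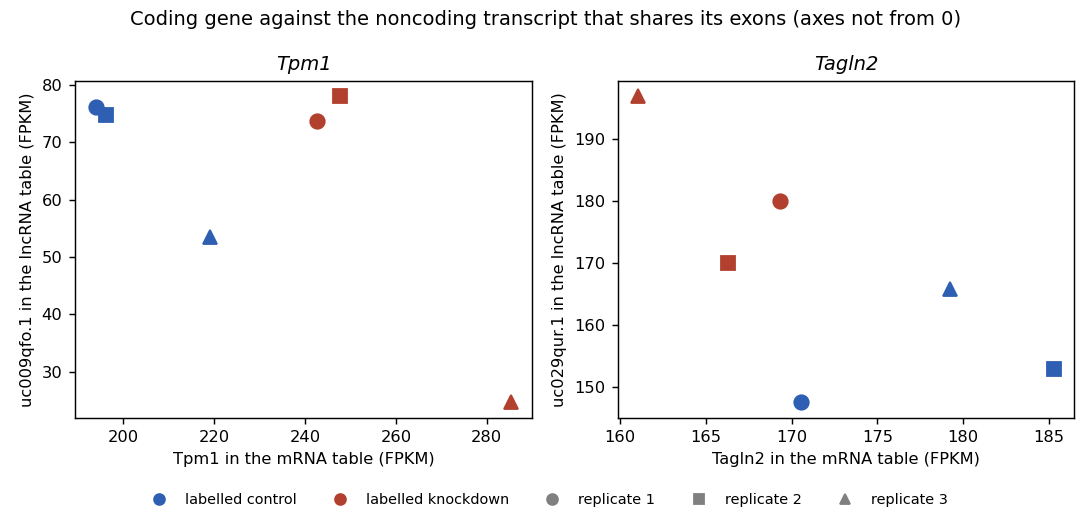
FPKM of Tpm1 and Tagln2 in the mRNA table (horizontal axes) against the noncoding transcript that shares exons with each (vertical axes), 1 point per library. For Tpm1 the replicate 3 libraries (triangles) are the highest of their group in the coding value and the lowest in the noncoding one, down to 24.6 FPKM. For Tagln2 the libraries labelled knockdown lie at lower coding and higher noncoding values.

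The tested antisense transcripts at the Tagln locus were not called, and their groups overlapped. The natural antisense transcript AK028131 was at 0.517, 0.833 and 1.03 FPKM in knockdown-labelled libraries and at 1.20, 1.14 and 0.992 FPKM in those labelled control (log2 fold change -0.48, limma adjusted p = 0.529). The antisense Pcsk7 transcript uc009pgq.1 averaged 0.447 ± 0.583 and 1.27 ± 0.654 FPKM and did not pass (limma adjusted p = 0.42). The natural antisense transcript uc029wyp.1 averaged 1.07 ± 0.935 and 1.75 ± 1.53 FPKM and did not pass either (limma adjusted p = 0.928). The SE of the log2 fold change was 0.96 for uc009pgq.1 and 1.73 for uc029wyp.1, so these estimates are loose. Whether strand was used in counting is not given in the sources used here, so reads of Tagln and of its antisense partners cannot be told apart with certainty.

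Other genes of the actin filament, from a list of 60 that excluded the 10 members, were called in 1 direction. Abundant genes, several of which are on this list, were called by limma more often than all tested genes (9.22% against 3.44%, either direction). Of 41 tested on the list, limma called 12 higher and 0 lower (1.83% and 1.61% of all tested genes) and 29 did not pass. At an unadjusted p under 0.05 stood 18 (22.4% of all tested genes), of which only Tnni3, a troponin of cardiac muscle chosen here after its values were seen, had a negative log2 fold change (-1.62, limma adjusted p = 0.0992). The median log2 fold change was 0.11, and edgeR called 16 of 39 higher and 0 lower (5.45% of its tested genes were called higher). The 4 with the smallest p were the actins Acta2 (340.2 ± 7.16 against 67.2 ± 4.16 FPKM, SD, n = 3 each, limma adjusted p = 4.40e-06), Actg2 (15.5 ± 1.14 against 0.464 ± 0.0703, adjusted p = 1.89e-05) and Acta1 (9.20 ± 1.12 against 0.0720 ± 0.0733, adjusted p = 0.000963), and destrin. Dstn, which encodes that actin-severing protein, was at 219.4 ± 3.37 against 154.1 ± 6.13 FPKM (log2 fold change 0.51, SE 0.04, limma adjusted p = 0.00353). Acta1 and Actg2, like Lmod1 among the called genes, passed the filter on low values only through the group where they were high. Acta2, Actg2, Lmod1 and Synpo2 were also among the called smooth muscle identity genes above, so the lists are not independent. Actin genes resemble each other closely in sequence, and how fragments matching several of them were assigned is not stated.

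Genes whose level ran most like a member's over the 6 libraries were found by Pearson's r of log2(FPKM + 0.1), without members and predicted genes. For Tagln they were Stat5b (r = 0.994), Hoxa7 (0.993) and Slc25a44 (0.990), and 65 of 11044 genes exceeded 0.95. Pearson's r takes no account of the size of a change. These genes averaged 6.29, 8.60 and 10.0 FPKM in knockdown-labelled libraries and 6.01, 6.98 and 8.84 FPKM in those labelled control. Tagln averaged 7.52 against 0.637 FPKM. For Cald1 they were Ly6e (0.998), Gdf11 (0.996) and Cdk20 (0.995), and for Tpm1 Cox7b (0.997), Ly6e (0.995) and Ppm1d (0.993). Genes over 0.95 numbered 124 for Cald1 and 122 for Tpm1. Of the other members compared with Cald1, Cnn2 had the highest value (r = 0.9998), followed by Tpm1 (0.994), whereas Tpm4 was at 0.647 and Tpm3 at -0.549 with Cald1. All points share the same 6 libraries and their depth, so these values describe likeness in these libraries alone.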

How the data were processed

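RNA freed of ribosomal RNA was read from stranded libraries, per the labels' protocols. The tools cutadapt, Cufflinks, Cuffdiff 2.2.1 and HISAT2 2.0.4 were used, per the submitters' processing notes, which list mm9 as well as mm10. For annotation and strand handling, nothing is given in the sources used here. FPKM values were deposited per gene and per lncRNA transcript, normalized by the authors, with expected counts beside them. In each library those deposited counts are fragments multiplied by a constant (0.916 to 1.20). After division by it, 90.3% to 90.6% of a library's nonzero mRNA values were within 0.01 of a whole number. Of 20201 genes compared with RefSeq GRCm38, 6261 shared a start once 1 was added to the table's start (472 without it), so coordinates are mm10.

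Rows of 79 repeated symbols were summed. In R 4.3.3, log2(FPKM + 0.1) was compared between groups, with no other term, by limma 3.58.1 (variance trended on mean level), for genes with at least 0.5 FPKM (lncRNA 0.1) in at least 3 libraries, with two-sided p-values adjusted by Benjamini and Hochberg. The added 0.1 draws the fold changes of low genes towards 0, and limma's mean of logs is another quantity than the fold of means that edgeR follows. EdgeR 4.0.16 (quasi-likelihood, TMM) and DESeq2 1.42.0 on recovered fragments, rounded to whole numbers, were alternatives, since these counts are estimated and scaled. Other pseudocounts, filters and scalings, a replicate term and left-out libraries were tried too. The fits were tested on simulated data whose changes were larger than those of every tested member but Tagln. Steps as small as those of the other members were thus not covered. Ratios and shares were compared by exact permutation over libraries. The members, lists and tests were chosen with earlier results of these data known. Named genes are all members, Myocd, the 4 called rises of smallest p (and called falls, of which there were 0) of the actin filament list, the 3 genes of highest r for Tagln, Cald1 and Tpm1, and called or most abundant markers. The interval of the Cnn1 ratio and the limit for a count of 0 cover counting error only, whereas limma's intervals rest on the spread between libraries.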

Additional observations from a re-analysis of the deposited data

How the results depend on the processing

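Limma called 0 members higher, and the count was larger under 8 planned settings on all libraries, beside the block given below: 2 with a pseudocount of 1, 1 each with no filter, with a filter of 1 FPKM and with robust estimation, 5 with median centring, 4 with TMM factors, 6 with edgeR and 5 with DESeq2. It was 1 without both replicate 3 libraries and 0 to 1 with 1 library left out. Adding the noncoding transcripts that share exons, chosen after seeing the data, gave 1 with limma and 6 with edgeR (all genes 630 higher and 521 lower). No setting called a member lower. Median centring gave 266 higher and 150 lower calls among all genes, 63.9% higher, where the uncentred values gave 213 and 187. Each of the 9 tested members kept its sign under every planned setting. That addition reversed the log2 fold change of Tagln2, to 0.060 (limma) and 0.036 (edgeR). The other actin filament genes called higher numbered 6 without trend, 4 without both replicate 3 libraries and 4 to 8 with 1 library left out. Calls among all genes, 213 higher and 187 lower, went to 77 and 67 without trend, 630 and 520 with edgeR, 437 and 364 with DESeq2, 48 and 28 without both replicate 3 libraries, and 29 to 104 and 13 to 88 with 1 library left out.

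With the replicate number as a block, limma called 4 members higher (Cnn2, Cald1, Tpm1 and Tpm4), and 143 genes higher and 100 lower in all. The numbers were not taken to pair the libraries, because the deviations of same-numbered libraries correlated by 0.04, -0.004 and 0.10. Not every library correlated best with its own number, but the 0.10 of the replicate 3 libraries was the highest of all pairs compared. Replicate 3 was also the highest or lowest of both groups for Cnn2, Cald1, Tpm1 and Tpm4. Whether the replicate 3 libraries share a source was not tested. Differences of the 3 ratios kept their sign under every setting, but those of Tagln and Cnn1 move with the pseudocount. Depth limits Cnn1 most, which rests on 20 fragments in all.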
